A study of Homo sapiens with 6 samples.

Results

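The genes described here are 48 genes of DNA replication, chosen by symbol from what their products do at the origin and at the fork, out of 20729 genes in the count table. All 48 were in the table and all 48 passed the filter on low counts. They comprised 14 genes of origin licensing, 6 of helicase activation, 9 polymerase subunits, 11 genes of the sliding clamp, clamp loader, single-strand binding protein and Okazaki fragment joining, 4 of nucleotide supply, and the 4 genes E2F1, E2F2, CCNE1 and CCNE2. RNA-seq libraries were compared from cells labelled SW620, an established human colorectal cancer line. By treatment, 3 libraries came from cells given the control siRNA (siNC) and 3 from cells given an siRNA against OSBPL3 (siOSBPL3), a gene for a lipid-binding protein of the oxysterol-binding protein family, and the labels name no other treatment. The series is titled for a link of OSBPL3 with the Hippo-YAP pathway and with the response to MEK inhibition. The sources used here give no siRNA sequence, dose or time and do not say whether replicates were separate cultures, so p-values cover only the variation among these 6 libraries, possibly technical.

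DNA replication starts at origins that are licensed in G1, when the origin recognition complex, CDC6 and CDT1 load the MCM ring onto DNA. CDC45 and the GINS complex then turn that ring into the moving helicase, polymerase alpha with its primase lays down primers, and polymerases delta and epsilon extend them on the PCNA clamp that replication factor C loads. Many genes of this machinery are known targets of the E2F transcription factors, which are released from pocket proteins when cyclin-dependent kinases, cyclin E-CDK2 among them, become active, and most are expressed in proliferating tumour cells.

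The promoter sequences of 7 genes are shown because these genes moved in opposite directions or by very different amounts while 6 of them carry an E2F word, and they were chosen after their values were seen. RefSeq promoters on GRCh38.p14, running from 250 bases before to 50 after the annotated start, were matched for 41 of the 48 genes. The words searched on both strands were TTTCGCGC, TTTGGCGC, TTTCCCGC and TTTGCCGC, matches may overlap, and a match describes letters and not a bound site. Each sequence is the 250 bases before the start on the gene's strand, 5′ to 3′, with E2F words in capitals. POLA1 and POLA2 encode subunits of one polymerase, RFC3 is a clamp loader subunit, MCM6 is a helicase subunit, E2F1 is a transcription factor, and TYMS and RRM2 make nucleotides.
POLA1 (chrX:24693668-24693917, plus strand): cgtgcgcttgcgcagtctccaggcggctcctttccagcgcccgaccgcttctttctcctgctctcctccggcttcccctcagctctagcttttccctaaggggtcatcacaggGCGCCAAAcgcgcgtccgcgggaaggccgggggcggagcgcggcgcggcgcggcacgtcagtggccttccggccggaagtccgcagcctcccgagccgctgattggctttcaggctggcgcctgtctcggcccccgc
POLA2 (chr11:65261712-65261961, plus strand): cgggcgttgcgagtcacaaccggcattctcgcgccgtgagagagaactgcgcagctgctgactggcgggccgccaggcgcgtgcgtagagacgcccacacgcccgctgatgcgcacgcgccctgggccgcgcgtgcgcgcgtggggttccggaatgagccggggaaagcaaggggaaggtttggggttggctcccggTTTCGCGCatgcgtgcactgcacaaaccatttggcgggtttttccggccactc
RFC3 (chr13:33817899-33818148, plus strand): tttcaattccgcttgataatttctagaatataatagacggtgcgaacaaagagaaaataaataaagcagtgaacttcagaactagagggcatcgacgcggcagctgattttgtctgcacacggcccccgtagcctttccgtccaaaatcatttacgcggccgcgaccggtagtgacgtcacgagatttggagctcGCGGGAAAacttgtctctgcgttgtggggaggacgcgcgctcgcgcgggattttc
MCM6 (chr2:135876444-135876693, minus strand): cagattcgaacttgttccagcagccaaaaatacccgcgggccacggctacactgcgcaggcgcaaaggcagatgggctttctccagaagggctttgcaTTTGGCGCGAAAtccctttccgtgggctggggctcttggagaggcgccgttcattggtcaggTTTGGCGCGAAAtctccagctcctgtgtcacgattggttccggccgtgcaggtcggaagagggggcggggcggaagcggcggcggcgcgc
E2F1 (chr20:33686386-33686635, minus strand): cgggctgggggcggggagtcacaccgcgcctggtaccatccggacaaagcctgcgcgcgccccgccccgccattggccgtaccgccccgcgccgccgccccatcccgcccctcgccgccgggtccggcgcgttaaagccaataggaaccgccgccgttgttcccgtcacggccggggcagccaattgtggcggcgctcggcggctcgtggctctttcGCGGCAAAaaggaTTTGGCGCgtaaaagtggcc
TYMS (chr18:657403-657652, plus strand): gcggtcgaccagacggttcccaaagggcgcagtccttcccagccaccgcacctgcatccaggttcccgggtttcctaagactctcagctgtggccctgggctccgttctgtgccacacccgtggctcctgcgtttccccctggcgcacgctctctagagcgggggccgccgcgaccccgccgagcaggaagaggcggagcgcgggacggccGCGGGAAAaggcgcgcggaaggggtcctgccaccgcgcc
RRM2 (chr2:10122489-10122738, plus strand): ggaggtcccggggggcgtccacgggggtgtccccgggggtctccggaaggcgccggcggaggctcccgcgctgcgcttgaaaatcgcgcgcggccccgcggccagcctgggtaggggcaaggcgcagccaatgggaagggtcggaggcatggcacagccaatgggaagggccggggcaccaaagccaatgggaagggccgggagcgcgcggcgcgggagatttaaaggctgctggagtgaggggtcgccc
The word in POLA1 began 137 bases before the start and that in POLA2 began 53 bases before it, so the subunit gene that fell most and one that rose each held 1 match. MCM6 held 4 matches as overlapping pairs, beginning 152, 148, 90 and 86 bases before the start, and E2F1 held 2, beginning 33 and 20 bases before it. RFC3 and TYMS held 1 match each, at 55 and 39 bases before the start, and RRM2 held none of these words in this window. The RRM2 window ends at 10122738, past the first base of its RefSeq gene position, 10122568, so it belongs to a later start. Of the 41 promoters, 20 (48.8%) held an E2F word, beside 628 of 12043 (5.21%) promoters of tested genes and 908 of 27305 (3.33%) promoters of the same length in all. By call, the word stood in 12 of 22 genes that rose, in 3 of 13 that fell and in 5 of 6 that did not pass. The words TTTGAA, known as the cell cycle genes homology region, and CCAAT stood in 1 and in 23 of the 41 promoters, beside 9.78% and 36% of promoters of tested genes.

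Libraries held 30040020 to 39701340 counts, and levels are given as CPM (counts per 1000000 counts) on TMM-scaled library sizes. The targeted gene, OSBPL3, stood at 179, 174 and 175 CPM in siNC and at 40.2, 12.2 and 15.1 CPM in siOSBPL3, and it fell by 2.97 on the log2 scale (edgeR, SE 0.48, adjusted p = 0.0016). Libraries of the siOSBPL3 group lay farther apart than the siNC libraries, and siOSBPL3 replicate 1, which kept the most OSBPL3, stood apart from replicates 2 and 3. Marker genes also moved with the group. In the list of colorectal epithelium, 5 of 9 tested genes were higher and 3 lower, and the summed level of its 10 genes went from between 7113 and 7191 CPM to between 4924 and 6059 CPM. EPCAM was at 515 to 518 CPM in siNC and 523 to 720.4 CPM in siOSBPL3, CDX2 at 0.708 to 1.46 and 53.4 to 72.7 CPM, and KRT20 at or near 0 throughout. Other genes of the list were lower: VIL1 was at 478 to 485.5 CPM in siNC and 60.1 to 64.8 CPM in siOSBPL3, and KRT18 at 2157 to 2226 CPM and 996 to 1337 CPM. In the mesenchymal list, 4 of 5 tested genes were lower and 1 higher, and the summed level of 9 genes went from between 759.7 and 772.5 CPM to between 8.29 and 15.1 CPM. Most of it in siNC was VIM, at 684 to 699.6 CPM in siNC and 0.91 to 2.6 CPM in siOSBPL3, and LUM, at 57.5 to 62.5 CPM in siNC, had no counts in siOSBPL3. Leukocyte markers summed to 20.4 to 22.9 CPM and 12.7 to 20.1 CPM over 7 genes, with 3 of 5 tested higher and 2 lower, and PTPRC and CD3E at or near 0. Endothelial markers summed to at most 2.37 CPM over 3 genes, with 1 of 2 tested lower and TEK at or near 0. The part of these marker differences in the results was not tested. All 6 libraries are labelled SW620, but whether both groups hold the same cells was not tested, so each siOSBPL3-over-siNC value below is a difference between these groups of libraries, and the siRNA and any difference in the cells cannot be told apart.

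Replication genes moved in both directions. Of the 48 genes, 25 were higher in siOSBPL3, 14 were lower and 9 did not pass (edgeR quasi-likelihood test, Benjamini-Hochberg adjusted p under 0.05 over all 15506 genes tested), so that 81.2% passed, beside 80.2% of all genes tested (40.4% higher and 39.8% lower). The share that passed was therefore near the background. The median log2 fold change, siOSBPL3 over siNC, was 0.32 over the 48 genes and -0.0009 over all genes. At 2-fold or more, 10 of the 48 genes rose and 6 fell, beside 48.9% of all genes (24.8% and 24.1%). Both shares of the 48 genes lay below those of all genes. The groups did not overlap in 24 genes that were higher and 14 that were lower, beside 83.0% of all genes, 41.5% in each direction. In bulk libraries, a change in the share of cells in S phase and a change in RNA per cell cannot be told apart.

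**Figure D1:**
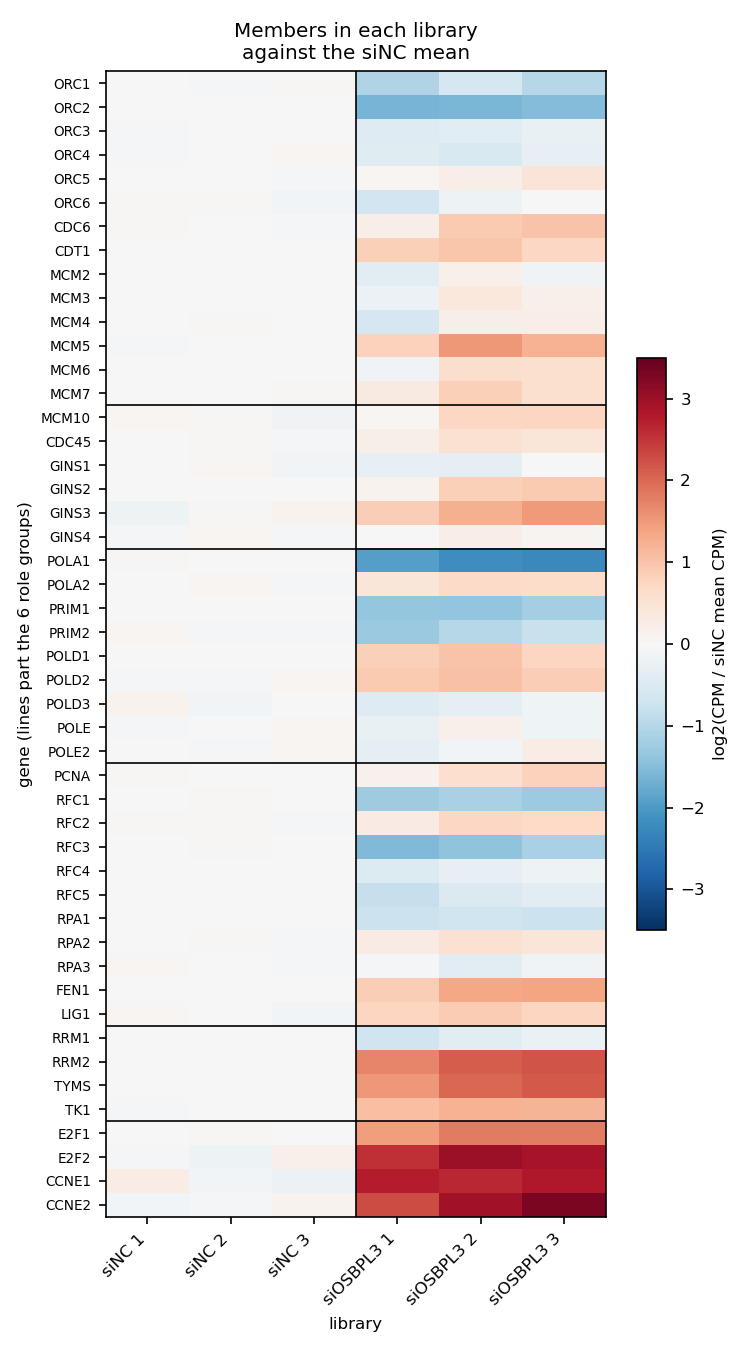
Heat map of log2(CPM / siNC mean CPM) for the 48 genes (rows, parted by lines into the 6 role groups) in the 6 libraries (columns). The 3 siNC columns are nearly blank. In all 3 siOSBPL3 libraries CCNE1, CCNE2 and E2F2 are the darkest red, E2F1 is paler red, and POLA1 is the darkest blue. siOSBPL3 replicate 1 is the lowest of its group in 37 of 48 genes.

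Fold changes varied with transcript GC content. Across the 48 genes the Spearman correlation of log2 fold change with GC content was 0.60, beside 0.38 across 14435 genes, and with transcript length it was -0.13, beside -0.21; genes are not independent replicates, and these are descriptions. With a per-library correction for GC content and length, 21 of the 48 genes were higher, 11 lower and 16 did not pass (77.3% of 14435 genes passed, 39.2% higher and 38.1% lower), with a median of 0.12. Both fits called 19 of the genes higher and 10 lower. Values with this correction are given beside each gene whose call or direction it changes, and beside each called gene whose log2 fold change it moves by over 1.5 times. The part of GC content in the differences was not tested further.

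**Figure D2:**
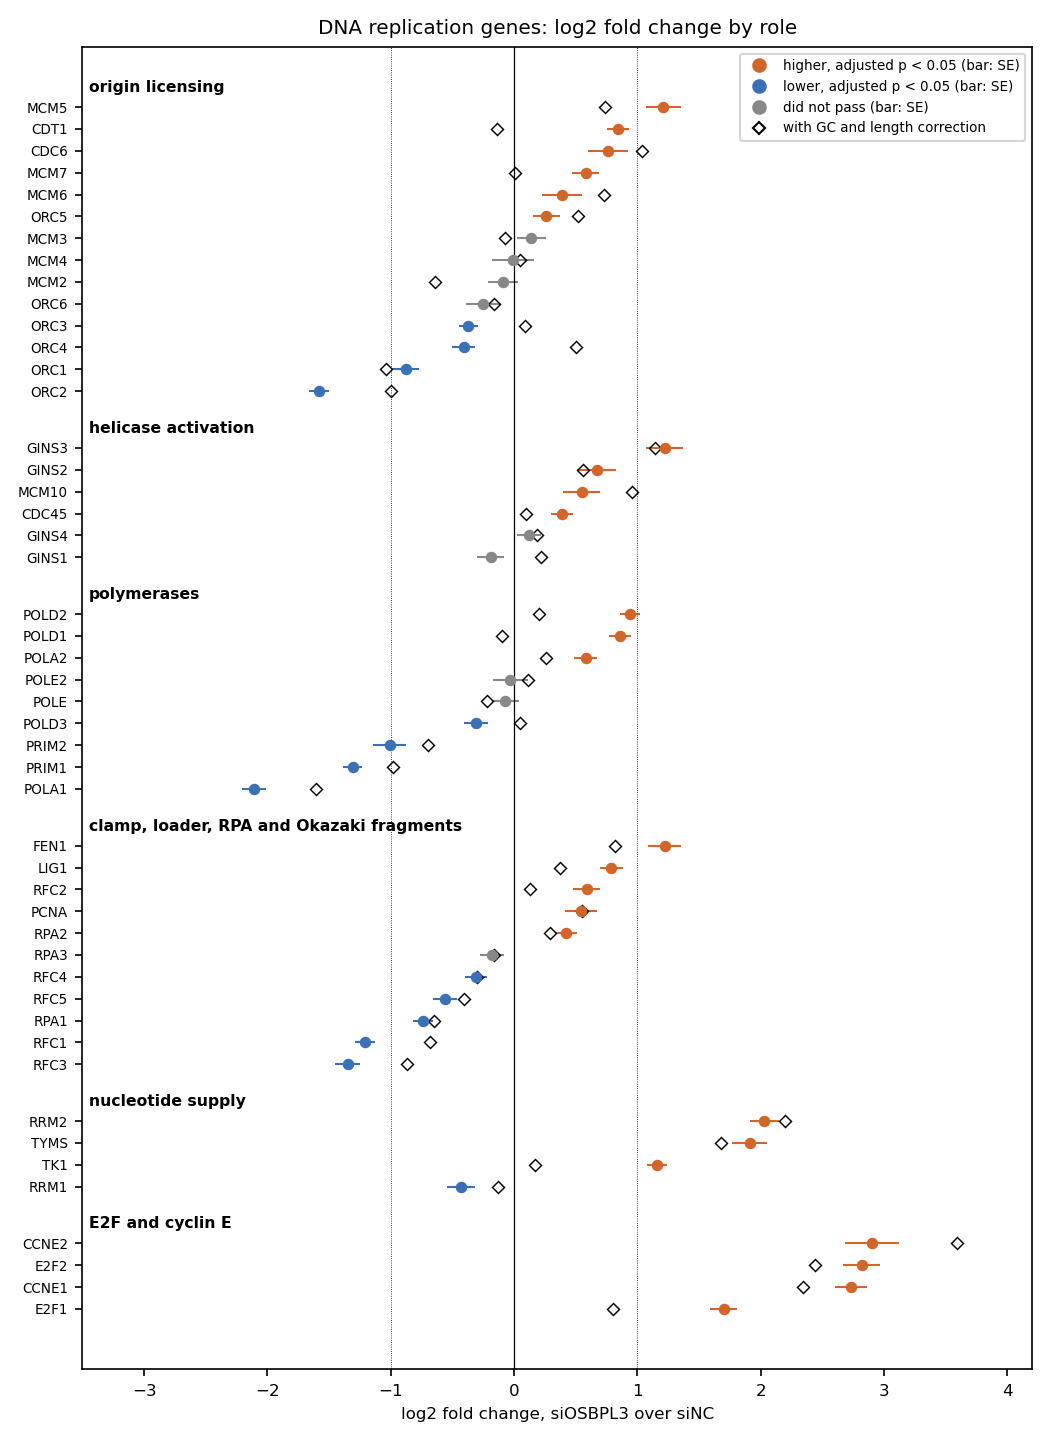
Log2 fold change, siOSBPL3 over siNC (x axis), of the 48 genes (y axis) by role, with filled points for the fit without correction (bars are SE, colours the call) and open diamonds for the GC content and length correction. E2F and cyclin E genes all lie right of 0 in both fits, polymerase alpha-primase genes other than POLA2 lie left of 0 in both, and the correction pulls POLD1 and CDT1 across 0.

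Origin licensing genes moved both ways. Of the 14, 6 were higher, 4 lower and 4 did not pass, with a median of 0.06, and with the correction 5 were higher, 3 lower and 6 did not pass. The origin recognition complex marks the origin, and ORC2, its core subunit at chr2:200908977-200963660 (RefSeq gene positions on GRCh38.p14, here and for other genes), was at 122, 123 and 119.8 CPM in siNC and 39.5, 39.98 and 42.9 CPM in siOSBPL3. It fell by 1.58 (SE 0.08, adjusted p = 2.8e-09, edgeR), with -1.0 under the correction. All 3 siOSBPL3 libraries lay far below all 3 siNC libraries and close to each other. ORC1, the ATPase subunit, stood at 57.4 to 60.04 CPM in siNC and 28.2 to 38.1 CPM in siOSBPL3 and fell by 0.88 (SE 0.11). ORC3 fell by 0.37 (SE 0.08) and ORC4 fell by 0.41 (SE 0.09), but with the correction ORC3 stood at 0.09 (adjusted p = 0.25, edgeR) and ORC4 was higher by 0.50 (adjusted p = 0.00014, edgeR). ORC5 was higher by 0.26 (SE 0.11, adjusted p = 0.041, edgeR), a call that was lost on leaving out any library but siOSBPL3 replicate 1 (adjusted p of 0.064 to 0.13), and by 0.52 with the correction. ORC6, at 64.0 to 70.4 CPM in siNC and 42.8 to 68.2 CPM in siOSBPL3, did not pass (-0.25, SE 0.14).

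The loading factors CDC6 and CDT1 both rose. CDC6, an ATPase that joins the origin complex to load MCM, was at 80.5 to 84.97 CPM in siNC and 97.5, 156 and 163 CPM in siOSBPL3, higher by 0.76 (SE 0.16), and replicate 1 was the lowest of its group. CDT1, which brings MCM to the origin, was at 47.2 to 48.4 CPM and 78.6 to 93.5 CPM, higher by 0.84 (SE 0.09), but with the correction it stood at -0.14 (adjusted p = 0.11, edgeR).

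The MCM helicase genes did not move as one. MCM5, a subunit of the ring at chr22:35400140-35455031, was at 60.8, 62.5 and 63.1 CPM in siNC and 109, 178 and 143 CPM in siOSBPL3. It rose by 1.21 (SE 0.14, adjusted p = 6.6e-06, edgeR), and by 0.74 with the correction. The siOSBPL3 libraries spread widely but all lay above siNC. MCM7 rose by 0.58 (SE 0.11) and stood at 0.01 with the correction (adjusted p = 0.92, edgeR). MCM6 was at 127, 129.8 and 128 CPM in siNC and 117, 196 and 191 CPM in siOSBPL3, so replicate 1 lay below siNC and the others above it. It passed at 0.39 (SE 0.16, adjusted p = 0.037, edgeR), the only call among the 48 genes whose groups overlapped. That call was lost without any 1 siNC library, without siOSBPL3 replicate 2 or without replicate 3 (adjusted p of 0.072 to 0.19, edgeR), and the value was 0.73 with the correction. MCM2, MCM3 and MCM4 did not pass, at -0.09 (SE 0.12), 0.14 (SE 0.12) and -0.01 (SE 0.17). MCM4 showed the split within siOSBPL3 most plainly, at 259.6 to 269.6 CPM in siNC and at 175 CPM in siOSBPL3 replicate 1 beside 303 and 311 CPM in replicates 2 and 3. Without replicate 1, MCM4 was higher by 0.22 (adjusted p = 0.0011, edgeR) and MCM3 by 0.28 (adjusted p = 0.0008, edgeR). With the correction, MCM2 was lower by 0.64 (adjusted p = 0.00076, edgeR), and MCM3 and MCM4 stood at -0.07 and 0.05.

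Of the 6 helicase activation genes, 4 were higher, none was lower and 2 did not pass, with a median of 0.47, and the correction gave the same counts (median 0.39), with 3 genes higher in both fits. At an unadjusted p under 0.05, 0 were lower by edgeR, DESeq2 or limma-voom, all fits of the same libraries. The share of all genes at that unadjusted threshold is not given here. At the adjusted threshold, 40.4% of all genes tested were higher and 39.8% lower. GINS3, a subunit of the GINS ring that joins CDC45 and MCM, lies at chr16:58392471-58406147. Its level was 15.1, 17.9 and 18.6 CPM in siNC and 31.5, 40.5 and 47.9 CPM in siOSBPL3, a rise of 1.22 (SE 0.15, adjusted p = 9.3e-06, edgeR). The lowest siOSBPL3 library lay well above the highest siNC library. GINS2, another GINS subunit, stood at 36.8 to 37.7 CPM in siNC and 40.6, 66.5 and 70.3 CPM in siOSBPL3 and rose by 0.67 (SE 0.16). MCM10, which binds the activated helicase, rose by 0.55 (SE 0.15), and by 0.96 with the correction. CDC45 rose by 0.39 (SE 0.09), a call lost with the correction (0.10, adjusted p = 0.35, edgeR). GINS1 and GINS4 did not pass, at -0.19 (SE 0.11) and 0.12 (SE 0.10), and GINS1 was higher by 0.22 with the correction (adjusted p = 0.043, edgeR).

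Polymerase subunits moved both ways, also within polymerase alpha-primase and within polymerase delta. Of the 9 subunits, 3 were higher, 4 lower and 2 did not pass, with a median of -0.07, and with the correction 2 were higher, 3 lower and 4 did not pass. POLA1, the catalytic subunit that extends RNA primers with DNA, lies at chrX:24693918-24996986. It was at 129.6, 125 and 126 CPM in siNC and 33.5, 28.2 and 26.7 CPM in siOSBPL3. It fell by 2.11 (SE 0.10, adjusted p = 1.5e-09, edgeR), with -1.61 under the correction, the largest fall among the 48 genes in both fits. All siOSBPL3 libraries lay at under 1 in 3 of the lowest siNC level, and siOSBPL3 replicate 1 was here the highest of its group.

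Both primase genes fell with POLA1. PRIM1, the catalytic primase, was at 92.6, 90.4 and 90.3 CPM in siNC and 35.4, 34.9 and 39.7 CPM in siOSBPL3, and fell by 1.31 (SE 0.08, adjusted p = 2.3e-08, edgeR) with no overlap. PRIM2, the regulatory primase subunit, was at 44.1, 40.9 and 41.3 CPM and at 17.1, 21.2 and 24.5 CPM, and fell by 1.01 (SE 0.13, adjusted p = 1.1e-05, edgeR), also with no overlap. The fourth subunit went the other way: POLA2, the accessory B subunit whose promoter is shown above, was at 48.6, 51.7 and 47.1 CPM in siNC and 65.8, 77.6 and 77.4 CPM in siOSBPL3, a rise of 0.58 (SE 0.09, adjusted p = 7.4e-05, edgeR), and 0.26 with the correction (adjusted p = 0.031, edgeR). POLA2 shares 53.7% of its exon bases with AP000944.2 on the same strand and PRIM1 shares 26.0% with AC117378.1, so reads there could belong to either. Shared exon bases also stood at 30.7% in MCM2 (AC023593.1), 21.2% in GINS4 (AC009630.2) and 16.5% in GINS3 (AC009118.2), all on the opposite strand. In POLD1 they stood at 12.1% (AC020909.1), on the same strand.

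Polymerase delta makes most of the lagging strand. POLD2, its accessory subunit, was at 87.8, 87.3 and 93.6 CPM in siNC and 170.0, 184 and 161 CPM in siOSBPL3, a rise of 0.94 (SE 0.08, adjusted p = 5.2e-07, edgeR) with no overlap, but of 0.20 with the correction (adjusted p = 0.034, edgeR). POLD1, the catalytic subunit, rose by 0.86 (SE 0.09), and stood at -0.10 with the correction (adjusted p = 0.26, edgeR). POLD3 fell by 0.31 (SE 0.10), a call lost without siNC replicate 1 (adjusted p = 0.055, edgeR) and with the correction (0.05). The polymerase epsilon subunits POLE and POLE2, of the enzyme that makes most of the leading strand, did not pass, at -0.07 (SE 0.11) and -0.03 (SE 0.14, and 0.11 with the correction). Their groups overlapped, POLE at 54.4 to 58.9 CPM and 47.4 to 63.2 CPM, and POLE2 at 21.1 to 23.3 CPM and 17.9 to 26.8 CPM.

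**Figure D3:**
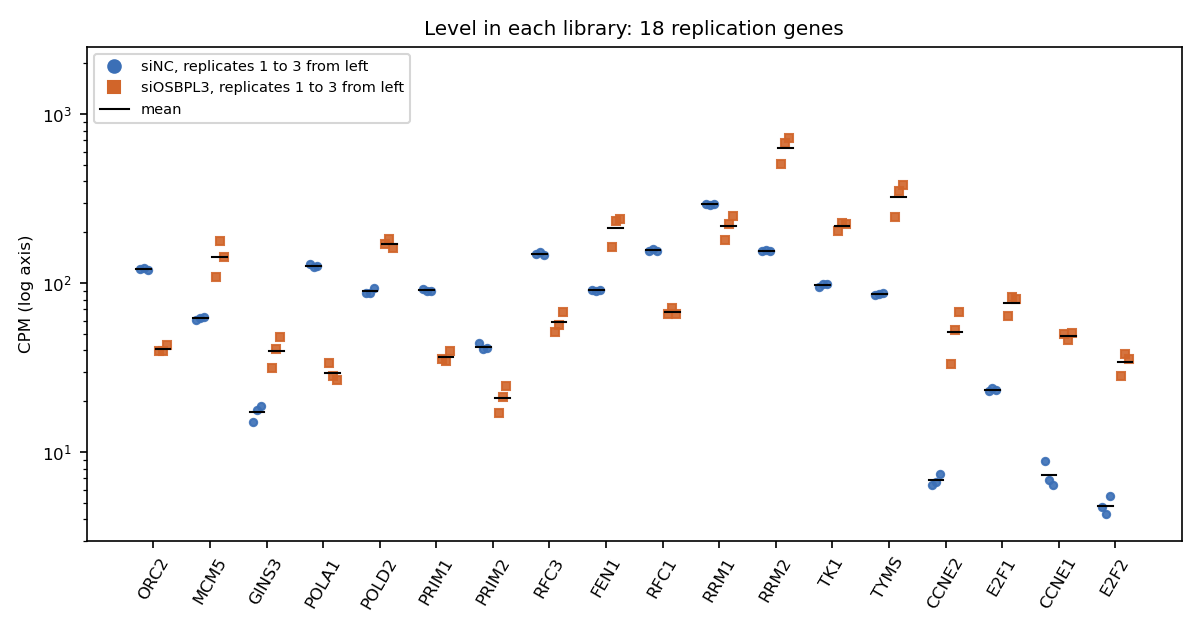
CPM on a log axis (y) of 18 replication genes (x), each with its 3 siNC libraries (circles), its 3 siOSBPL3 libraries (squares) and the group means (lines). Circles and squares are apart in every gene shown. These genes are those past the threshold with the largest changes of their role, and the rule for members at 2-fold or more required groups that do not overlap. Over all genes tested, the groups did not overlap in 83.0%. The squares spread more than the circles in every gene shown but CCNE1.

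Clamp loader subunits mostly fell while the enzymes of Okazaki fragment joining rose. Of these 11 genes, 5 were higher, 5 lower and 1 did not pass, with a median of -0.18, and with the correction 4, 5 and 2. RFC3, at chr13:33818149-33977377, was at 148, 153 and 148 CPM in siNC and 51.7, 56.5 and 68.0 CPM in siOSBPL3. It fell by 1.35 (SE 0.10, adjusted p = 1.2e-07, edgeR), with -0.87 under the correction. RFC1, the large subunit that opens the clamp, was at 155, 160.0 and 155 CPM and at 66.0, 71.6 and 65.5 CPM, and fell by 1.21 (SE 0.08, adjusted p = 3e-08, edgeR), with -0.68 under the correction. In both genes the groups were far apart. RFC4 fell by 0.31 (SE 0.09) and RFC5 fell by 0.56 (SE 0.10). RFC2 alone of the 5 rose, by 0.59 (SE 0.11), a call lost with the correction (0.13, adjusted p = 0.35, edgeR).

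PCNA, the clamp itself, was at 364 to 379 CPM in siNC and at 409, 552 and 647 CPM in siOSBPL3, higher by 0.54 (SE 0.13). Replication protein A coats single-stranded DNA, and its subunits differed: RPA1 fell by 0.74 (SE 0.08), RPA2 rose by 0.42 (SE 0.09), and RPA3 did not pass, at -0.18 (SE 0.10). FEN1, the nuclease that trims Okazaki fragment flaps, was at 91.6, 90.5 and 91.3 CPM in siNC and 165, 234 and 239 CPM in siOSBPL3. It rose by 1.22 (SE 0.13, adjusted p = 2.1e-06, edgeR), and LIG1, the ligase that seals the fragments, rose by 0.79 (SE 0.09) from 31.5 to 35.7 CPM to between 56.4 and 62.8 CPM. No siOSBPL3 library overlapped siNC for either gene. With the correction LIG1 rose by 0.37.

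Nucleotide supply genes rose except for the large subunit of ribonucleotide reductase. All 4 passed, 3 higher and 1 lower, with a median of 1.54, while with the correction 2 were higher and 2 did not pass (median 0.92). RRM2, the small subunit whose level limits the reductase in S phase, lies at chr2:10122568-10211010. It was at 155, 156 and 156 CPM in siNC and 508, 674 and 722 CPM in siOSBPL3, a rise of 2.03 (SE 0.12, adjusted p = 1.3e-08, edgeR). The siNC libraries were nearly equal and every siOSBPL3 library was at least 3 times as high. RRM1, the large subunit that holds the active site, was at 295, 291 and 295 CPM and at 180.0, 224 and 250.2 CPM, and fell by 0.43 (SE 0.11, adjusted p = 0.0034, edgeR), a call lost with the correction (-0.13, adjusted p = 0.25, edgeR).

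TYMS, thymidylate synthase, which makes dTMP from dUMP, was at 85.3, 86.5 and 87.2 CPM in siNC and 246, 349 and 379.6 CPM in siOSBPL3, a rise of 1.91 (SE 0.14, adjusted p = 7.8e-08, edgeR). TK1, the thymidine kinase of the salvage route, was at 95.0, 98.8 and 98.5 CPM and at 203, 228 and 223 CPM, a rise of 1.16 (SE 0.08, adjusted p = 6.6e-08, edgeR) that did not pass with the correction (0.17, adjusted p = 0.13). Both genes were separate between groups in all libraries. TYMS shares 58.2% of its exon bases with ENOSF1 on the opposite strand, and RRM2 shares 27.9% with AC007240.1 on the same strand, and whether counting used strand is not given in the sources used here.

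All 4 E2F and cyclin E genes rose, and CCNE1, CCNE2 and E2F2 had the 3 largest rises of the 48 genes in both fits. The value of E2F1, 1.70, lay below those of RRM2 (2.03) and TYMS (1.91), a difference that was not tested. The median of the 4 was 2.78, and 2.39 with the correction. CCNE1, a cyclin that activates CDK2 at the entry to S phase, lies at chr19:29811991-29824312. It was at 8.89, 6.87 and 6.37 CPM in siNC and 49.8, 46.2 and 51.0 CPM in siOSBPL3, a rise of 2.73 (SE 0.13, adjusted p = 2.1e-09, edgeR). CCNE2, the other E cyclin, was at 6.42, 6.69 and 7.48 CPM and at 33.4, 53.0 and 67.7 CPM, a rise of 2.90 (SE 0.22, adjusted p = 2.4e-07, edgeR), and of 3.59 with the correction. Both cyclins were separate by several-fold, and only CCNE2 spread widely within siOSBPL3. CCNE2 shares 47.5% of its exon bases with INTS8 on the opposite strand.

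E2F1 and E2F2 are activator E2Fs. E2F1, at chr20:33675477-33686385, was at 23.1, 23.9 and 23.2 CPM in siNC and 64.2, 83.1 and 80.8 CPM in siOSBPL3, a rise of 1.70 (SE 0.11, adjusted p = 2.3e-08, edgeR), and of 0.80 with the correction. E2F2 was at 4.72, 4.28 and 5.50 CPM and at 28.4, 38.3 and 35.6 CPM, a rise of 2.82 (SE 0.15, adjusted p = 5.1e-09, edgeR). No library of one group reached the range of the other for either gene.

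Per kilobase of transcript, levels can be set roughly between genes, and the balance shifted in most of the pairs named here. The pairs were set by hand and not by a rule. Most join a gene that rose with one that fell, so for those a shift was built into the choice. In polymerase alpha-primase the order from high to low was PRIM1, POLA1, PRIM2, POLA2 in siNC and PRIM1, POLA2, PRIM2, POLA1 in siOSBPL3. These levels use the longest transcript of each gene, whichever is expressed. Reads in the exon bases that POLA2 and PRIM1 share with other genes could change this order. The ratio of POLA1 to POLA2 was 1.76 ± 0.101 (SD, n = 3) in siNC and 0.277 ± 0.0615 (SD, n = 3) in siOSBPL3. The ratio of RRM2 to RRM1 was 0.445 ± 0.00488 (SD, n = 3) and 2.43 ± 0.0819 (SD, n = 3), so RRM1 was the higher in siNC and RRM2 in siOSBPL3. MCM5 to MCM2 went from 0.437 ± 0.00884 to 1.07 ± 0.0615, RFC3 to RFC2 from 1.91 ± 0.0725 to 0.502 ± 0.0586, and ORC2 to ORC5 from 1.52 ± 0.0211 to 0.429 ± 0.0416 (all SD, n = 3). GINS3 to GINS1 went from 0.610 ± 0.0924 to 1.6 ± 0.225 and RPA1 to RPA2 from 1.25 ± 0.0672 to 0.561 ± 0.0349 (both SD, n = 3). POLD2 to POLD3 went from 2.39 ± 0.199 to 5.69 ± 0.785 (SD, n = 3). In these ratios no library of one group overlapped the other. Apart from MCM5 to MCM2 and GINS3 to GINS1, this was fixed beforehand. In the other pairs both genes already lay apart between groups, in opposite directions, so the separation of their ratio adds nothing to their calls. These levels carry no GC content and length correction. As a difference of the fitted log2 fold changes, the shift of POLA1 to POLA2 was -2.69, and -1.86 with the correction, and that of RFC3 to RFC2 was -1.94 and -1.01. GINS3 to GINS1 shifted by 1.40 and 0.92, while RRM2 to RRM1 (2.45 and 2.34), MCM5 to MCM2 (1.3 and 1.38), ORC2 to ORC5 (-1.84 and -1.52) and RPA1 to RPA2 (-1.15 and -0.94) moved less between the fits. POLD2 to POLD3 shifted by 1.25 without the correction but by only 0.15 with it. The ratio of CCNE1 to CCNE2 did overlap, at 1.77 ± 0.442 and 1.69 ± 0.647 (SD, n = 3), a shift of -0.17, and of -1.25 with the correction. An exact permutation test of 3 against 3 libraries cannot go below p = 0.1, so no p is given for a ratio.

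The spread between subunits of a complex, as the highest over the lowest mean level per kilobase, narrowed for MCM2 to MCM7, from 4.62 to 3.04 times. It widened for replication factor C, from 2.32 to 4.35 times, and for GINS, from 1.84 to 2.53 times. For the origin recognition complex it was 4.82 and 5.37 times, and for polymerase alpha-primase 4.99 and 4.90 times. These spreads rest on group means without the correction and were not tested.

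**Figure D4:**
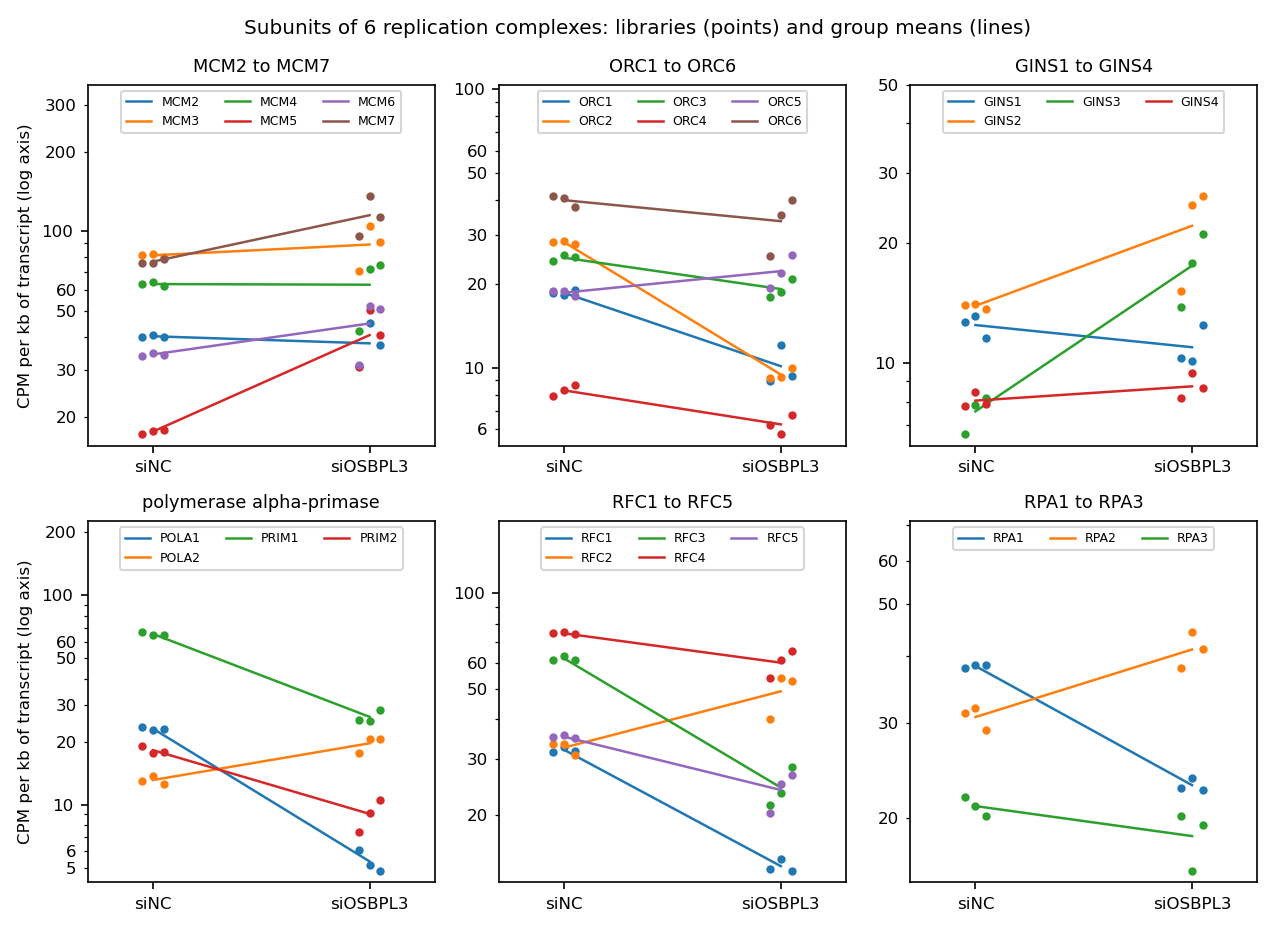
CPM per kilobase of transcript on a log axis (y) in siNC and siOSBPL3 (x) for the subunits of 6 complexes, with points for libraries and lines between group means. Levels carry no GC content and length correction and use the longest transcript of each gene, whichever is expressed. Lines cross where the order of subunits turned, as for POLA1 and POLA2, RFC2 and RFC3, and RPA1 and RPA2.

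Within siOSBPL3, replicate 1 was low for most replication genes, up or down. It was the lowest of the 3 libraries in 37 of 48 genes (77.1%), beside 40.2% of all genes tested, and its median log2 difference from the other 2 was -0.28, beside -0.02. By role it was lowest in 12 of 14 licensing genes, 5 of 6 helicase activation genes, 5 of 9 polymerase subunits, 8 of 11 clamp and Okazaki genes, 4 of 4 nucleotide genes and 3 of 4 E2F and cyclin E genes. The summed level of the 48 genes was 4683 CPM in replicate 1 beside 6145 and 6186 CPM in replicates 2 and 3, and 4412 to 4452 CPM in siNC. The median coefficient of variation of the 48 genes was 2.24% in siNC and 14.1% in siOSBPL3, beside 4.01% and 10.9% over all tested genes whose mean level reached 5 CPM. Without replicate 1, 27 of the 48 genes were higher, 15 lower and 6 did not pass, with a median of 0.42.

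Other genes of the pathway, 80 tested in 6 lists, were 34 higher, 36 lower and 10 not passing, with a median of -0.10, and 38, 29 and 13 with the correction, with a median of 0.18, of the opposite sign. The list of licensing control and origin firing had 3 higher, 7 lower and 2 not passing (median -0.39), and with the correction 5, 5 and 2 (median 0.09), so the sign of its median turned. CDC7, the kinase that triggers firing at licensed origins, fell by 1.37 (SE 0.09) from 58.9 to 60.3 CPM to between 21.7 and 24.2 CPM, with -0.81 under the correction. MCM8, of a helicase used in repair, fell by 1.45 (SE 0.12), with -0.77 under the correction. LRWD1, which binds the origin recognition complex, rose by 1.53 (SE 0.12) and RECQL4, a helicase of replication initiation, by 1.06 (SE 0.10); with the correction these were 0.50 and 0.10, the second not passing (adjusted p = 0.38, edgeR).

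Fork protection and checkpoint genes mostly fell, with 9 lower and 2 higher of 11 tested (median -0.72), and with the correction 7 lower, 2 higher and 2 not passing (median -0.32). HUS1, of the checkpoint clamp, fell by 1.15 (SE 0.14), and ETAA1, an activator of the ATR kinase, fell by 1.04 (SE 0.11), with -0.32 under the correction. The 2 that rose were CLSPN, the CHK1 adaptor, by 0.63 (SE 0.13) and TIPIN, of the fork protection complex, by 0.54 (SE 0.14), and the correction raised these to 0.96 and 0.82.

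Among 12 other polymerase, loader and topoisomerase genes, 7 were higher, 4 lower and 1 did not pass (median 0.29), and with the correction 5 were higher and 7 lower (median -0.36), so the list's sign depended on it. TOP2A, the topoisomerase that untangles sister DNA, was at 951, 946 and 940.1 CPM in siNC and 278, 295 and 294 CPM in siOSBPL3, and fell by 1.71 (SE 0.07), with -0.95 under the correction. ATAD5, which unloads PCNA, fell by 1.42 (SE 0.13), with -0.49 under the correction. POLE4, a small polymerase epsilon subunit, rose by 1.79 (SE 0.12), and RNASEH2A, of the nuclease that removes ribonucleotides, by 1.13 (SE 0.10).

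Replication-coupled chromatin assembly had 4 higher, 2 lower and 3 not passing of 9 (median 0.24), and with the correction 6, 1 and 2 (median 0.29). The histone chaperone ASF1B rose by 1.57 (SE 0.10) and CHAF1A, of chromatin assembly factor 1, by 1.45 (SE 0.10), and with the correction these were 0.87 and 0.91. ASF1A fell by 0.44 (SE 0.08) but was higher by 0.29 with the correction, and SSRP1, of the FACT complex, fell by 0.33 (SE 0.08), with -0.66 under the correction. Other nucleotide supply genes had 9 higher, 4 lower and 2 not passing of 15 (median 0.39), and with the correction 9, 1 and 5 (median 0.43). DCTPP1, the dCTP pyrophosphatase, rose by 1.31 (SE 0.11), or 0.71 with the correction, and NME1, a nucleoside diphosphate kinase, by 1.3 (SE 0.13). The purine synthesis genes GART and PAICS were lower: GART fell by 0.66 (SE 0.08) and PAICS fell by 0.53 (SE 0.10), with PAICS at 0.07 under the correction.

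Regulators of the E2F and cyclin-dependent kinase axis moved both ways, with 9 higher, 10 lower and 2 not passing of 21 (median -0.20), and with the correction 11, 8 and 2 (median 0.24), again with the sign turned. CDKN1A, the p21 inhibitor of cyclin-dependent kinases, was at 7.64, 7.5 and 7.18 CPM in siNC and 194, 180.1 and 177 CPM in siOSBPL3, a rise of 4.62 (SE 0.09, adjusted p = 3e-12, edgeR). Both cyclin E genes rose in the same libraries. The pocket protein gene RBL2 fell by 2.22 (SE 0.10) from 141 to 147 CPM to between 27.0 and 35.5 CPM. The repressor E2Fs parted: E2F7 was at 53.1 to 56.8 CPM and 11.1 to 17.3 CPM, and fell by 1.98 (SE 0.14), while E2F8 was at 6.98 to 7.43 CPM and 26.9 to 37.5 CPM, a rise of 2.17 (SE 0.14).

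Genes of G2 and mitosis, set beside the replication genes as another phase of the cycle, had 13 lower, none higher and 3 not passing of 16, with a median of -0.50, and with the correction 10 lower, 1 higher and 5 not passing, with a median of -0.29. At an unadjusted p under 0.05 without the correction, 0 were higher and 14 lower by edgeR, DESeq2 and limma-voom alike, all fits of the same libraries. The share of all genes at that unadjusted threshold is not given here. At the adjusted threshold, 40.4% of all genes tested were higher and 39.8% lower. The 1 higher with the correction was KIF11, a mitotic kinesin named after its value was seen, at -0.25 without the correction and 0.48 with it. CENPE, a centromere motor, fell by 1.38 (SE 0.09), with -0.22 under the correction, and CCNB1, the mitotic cyclin, fell by 1.18 (SE 0.08) from 345 to 352 CPM to between 145 and 164 CPM. siOSBPL3 replicate 1 was the lowest of its group in 15 of the 16 genes. TTTGAA stood in 9 of 13 matched promoters of this list (69.2%) and CCAAT in 11 of 13, while an E2F word stood in 2.

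**Figure D5:**
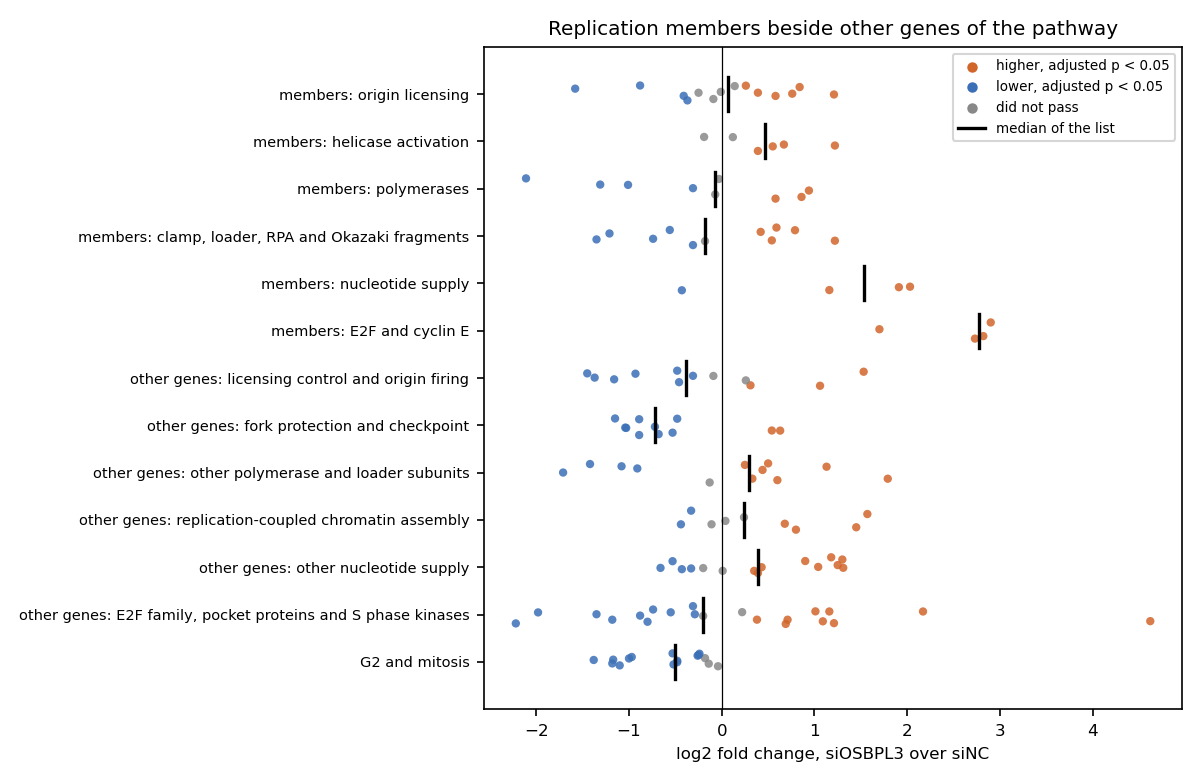
Log2 fold change, siOSBPL3 over siNC (x axis), of each gene (points, coloured by call) in the 6 role groups, the 6 other pathway lists and the G2 and mitosis list (y axis), with a bar at each list's median. The medians run from -0.72 for fork protection and checkpoint genes to 2.78 for E2F and cyclin E genes, and no gene of the G2 and mitosis list is coloured as higher.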

How the data were processed

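The authors deposited whole-number read counts per gene symbol, not normalized, for 6 libraries. Per the submitters' processing notes, HISAT2 2.2.1, HTSeq 0.13.5 and GRCh38 (hg38) were used; the sources used here give no annotation, counting options or strand setting, so reads of overlapping genes cannot be told apart. Groups and replicate numbers came from the titles.

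The test was edgeR 4.0.16 (R 4.3.3) on the counts: filterByExpr (minimum count 10, total 15), TMM scaling, robust quasi-likelihood fit on group, two-sided, Benjamini-Hochberg adjustment over 15506 genes, threshold 0.05. Log2 fold changes are siOSBPL3 over siNC. CPM use TMM-scaled sizes; CPM per kilobase divides by the longest basic GENCODE 29 transcript. The GC content and length correction is a smooth per-library offset (mgcv 1.9.3), with values for 93.1% of tested genes and all 48 members. It was fitted to each library's deviation from the mean of all 6 libraries, without the group. A group difference that goes with GC content or length is therefore also reduced, whatever its source. Ratios have an SD over 3 libraries.

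The members and lists were chosen with earlier results of these data known. Full values are given for POLA1, RRM2, the largest rise and fall of each role, and members at 2-fold or more without overlap; of other lists, the 2 largest rises and falls are named. Lists were counted without a set test. ATRIP was in the table but not tested, and CHTF8 was not analysed here.

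Same-numbered libraries did not deviate together (correlations -0.0265, -0.000554 and -0.0289). Replicate pairs differed by more than sampling noise, with a chi-square over its degrees of freedom of 2.94 to 3.52 in siNC and 18.4 to 48.9 in siOSBPL3. On 3 simulated sets for this comparison (200 changed genes each, 15247 to 15254 genes tested), 56.8% of genes changed 1.5-fold, 72.2% at 2-fold and 90.1% at 4-fold were called, and 7.17% of calls were false. These sets gave both groups the same spread and changed far fewer genes than passed in the data, so the shares may not hold there. Alternatives were DESeq2 1.42.0, limma-voom (limma 3.58.1), library totals, RLE factors, testing without a filter or only above a mean of 5 CPM, a 2-fold or 0.01 threshold, the correction, the replicate block and each library left out. A fit of the GC-matched genes without the correction was added after the data were seen.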

Additional observations from a re-analysis of the deposited data

How the results depend on the processing

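Calls of all 48 members kept their direction and side of the threshold with DESeq2, RLE factors and a mean of at least 5 CPM. Requiring a 2-fold change left 10 members higher and 6 lower, 17 and 13 of the other pathway genes, and 4 G2 and mitosis genes lower. With the GC content and length correction 1 G2 and mitosis gene was higher, and ORC3 (0.09), ORC4 (0.50), CDT1 (-0.14), MCM3 (-0.07), MCM4 (0.05), GINS1 (0.22), POLD1 (-0.10), POLD3 (0.05), POLE2 (0.11), ASF1A (0.29) and PAICS (0.07) changed direction. Of these, ORC3, CDT1, POLD1, POLD3 and PAICS also lost their calls with the correction. MCM7, CDC45, RFC2, RRM1, TK1 and RECQL4 kept their direction but no longer passed with it. Among the members, MCM2 (-0.64) and GINS1 (0.22) gained a call, and the cause of these changes was not tested. Library totals turned MCM4 to 0.03 and POLE2 to 0.01. The call of MCM6 was lost with limma-voom (adjusted p = 0.06) and without the filter (adjusted p = 0.072). With each library left out in turn, 23 to 27 members were higher and 13 to 16 lower, 29 to 36 and 33 to 37 of the other pathway genes, and 0 and 11 to 14 of the G2 and mitosis genes. Over the same fits MCM2 ran from -0.23 to 0.04, MCM4 from -0.14 to 0.22, POLE from -0.19 to 0.02 and POLE2 from -0.19 to 0.10. Without siOSBPL3 replicate 3, ORC6 (-0.39) and GINS1 (-0.29) also passed, and without replicate 2, MCM2 (-0.23). Without replicate 1, MCM3 (0.28), MCM4 (0.22) and RPA3 (-0.24) also passed.

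The replicate numbers did not pair the libraries. With the replicate number as a block, 25 members were higher and 15 lower, 32 and 36 of the other pathway genes, and 0 and 13 of the G2 and mitosis genes; ORC6 gained a call (-0.27, adjusted p = 0.023, edgeR). On the GC-matched genes without the correction, 24 members were higher and 14 lower. With 3 libraries a group, 56.8% of simulated 1.5-fold changes were called, in sets that gave both groups the same spread. The siOSBPL3 libraries spread more than the siNC libraries, so that share may not hold for these data. A member that did not pass may differ by a small amount.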
